A study of Mus musculus with 24 samples.

Results

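The myelin genes of mature oligodendrocytes were followed in bulk RNA sequencing of the entorhinal cortex of adult mice. They are Mbp, Mog, Mag, Mobp, Cnp, Mal, Cldn11, Opalin and Ermn, taken by name from the deposited table, and make up 9 of its 55417 genes. All 9 had enough reads to be tested. The mice were 2 to 4 months old and labelled tg/tg for a cross of Nop-tTA Line S with TRE-GlyCl-YFP Line 9531, and every group, vehicle included, carried both transgenes. The Nop promoter drives the tTA transactivator, which switches on GlyCl-YFP, an engineered chloride channel, in neurons of this region. The 6 vehicle libraries came from 4 females and 2 males, and the groups taken 1, 2 and 3 days after channel activation each held 6 libraries from 3 females and 3 males. The labels name neither the activating agent nor the time at which vehicle mice were collected. Each library has a number of its own in the labels, read here as 1 animal, and p-values measure the spread between these libraries. The comparisons below ask whether the myelin genes differed from vehicle on any day after activation, from one day to the next, or between the sexes.

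Oligodendrocytes wrap axons in myelin, a multilayered membrane rich in lipid and in a small set of abundant proteins that hold its layers together. Most of these genes are switched on when a precursor cell matures, under the transcription factors SOX10 and MYRF, and remain on in the adult. Myelin basic protein (Mbp) and MOBP lie between the cytoplasmic faces of the membrane, CNP keeps cytoplasmic channels open within the sheath, and MAL and claudin 11 (Cldn11) are membrane proteins of lipid sorting and of tight junctions between the layers. MAG sits on the innermost layer facing the axon, MOG on the outermost layer, and opalin (Opalin) in the membrane of the mature cell. Ermin (Ermn) binds actin in processes of late oligodendrocytes.

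Promoter sequences are shown first, since SOX10 and MYRF are named above as regulators of most of these genes. Any part of the motifs in how the genes varied across libraries was not tested. RefSeq promoter windows on GRCm38.p6, running from 250 bases before to 50 bases after a gene's start, were at hand for 8 of the 9 genes, Mbp being the exception, in 10 windows of which 3 belonged to Mag. Capitals mark matches, on either strand, to CTGGCAC or CTGGTAC, the 2 forms of the MYRF motif, and to ACAAAG or ACAATG, core letters of the SOX motif. A match on the opposite strand appears as the reverse complement of those letters, and no match in the printed windows overlaps another. The Mobp window lies at chr9:120149492-120149791 on the plus strand, the first Mag window at chr7:30914814-30915113 on the minus strand, the Cnp window at chr11:100574689-100574988 on the plus strand and the Opalin window at chr19:41077064-41077363 on the minus strand, each written along the gene's own strand from 5′ to 3′.
Mobp: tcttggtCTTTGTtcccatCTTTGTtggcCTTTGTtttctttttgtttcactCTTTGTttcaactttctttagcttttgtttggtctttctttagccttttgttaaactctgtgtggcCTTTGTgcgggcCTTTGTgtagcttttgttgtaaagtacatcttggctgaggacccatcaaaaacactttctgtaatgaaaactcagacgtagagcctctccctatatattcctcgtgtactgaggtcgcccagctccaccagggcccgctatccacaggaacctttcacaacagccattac
Mag: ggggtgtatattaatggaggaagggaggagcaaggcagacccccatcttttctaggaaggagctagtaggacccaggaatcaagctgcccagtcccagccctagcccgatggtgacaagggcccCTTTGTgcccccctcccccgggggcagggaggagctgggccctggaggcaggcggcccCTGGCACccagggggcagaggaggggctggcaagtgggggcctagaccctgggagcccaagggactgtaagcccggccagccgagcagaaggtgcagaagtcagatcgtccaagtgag
Cnp: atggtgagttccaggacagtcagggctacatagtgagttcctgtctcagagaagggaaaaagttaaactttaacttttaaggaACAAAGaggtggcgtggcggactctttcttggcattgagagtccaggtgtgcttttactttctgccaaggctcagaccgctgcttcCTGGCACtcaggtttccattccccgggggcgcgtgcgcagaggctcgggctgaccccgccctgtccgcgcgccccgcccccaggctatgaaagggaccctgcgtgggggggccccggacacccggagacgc
Opalin: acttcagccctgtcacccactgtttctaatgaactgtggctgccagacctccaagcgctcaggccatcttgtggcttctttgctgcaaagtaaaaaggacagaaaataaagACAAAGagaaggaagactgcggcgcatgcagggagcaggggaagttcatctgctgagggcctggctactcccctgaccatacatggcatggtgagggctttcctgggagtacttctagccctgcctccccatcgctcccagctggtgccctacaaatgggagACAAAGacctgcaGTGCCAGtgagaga

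Mobp held 6 copies of ACAAAG, the most among the 8 genes, and its window was the only 1 of all 32851 (0.00304%) to reach that number. The first Mag window and the Cnp window each held 1 CTGGCAC and 1 ACAAAG, and the Opalin window held 1 CTGGCAC and 2 ACAAAG. Mog held 1 CTGGTAC, Ermn 1 ACAATG, and the windows of Mal and Cldn11 held none of the 4 motifs. CTGGCAC was therefore found in 3 of the 8 genes and either MYRF form in 4 of 8, while 5.01% and 7.1% of all windows held them. ACAAAG was found in 4 of the 8 genes and either SOX form in 5 of 8, against 18.7% and 28.6% of all windows. A gene was counted if any of its windows held the letters, with 3 windows for Mag. The shares count single windows, so genes and shares are unlike units. A match describes letters in a window and is not a bound site.

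Library totals lay between 16621659 and 23667449 counts. The transgene transcript EYFP was present in all libraries, at 50.9 to 139 CPM (counts-per-million values, scaled by edgeR's TMM factors). On day 3 it ran from 50.9 to 77.4 CPM, below all vehicle libraries at 94.3 to 139 CPM (log2 difference -0.89 ± 0.11, edgeR adjusted p 1.2e-05), and on days 1 and 2 it was not called. Ttr, the main transcript of the choroid plexus, split the libraries into 8 with 562 CPM or more (vehicle library 5, day 1 libraries 2 and 4, day 2 libraries 4 and 6, day 3 libraries 2, 3 and 6) and 16 with 25.9 CPM or less. The median differences, the correlations and values of some single genes are also given without these 8 libraries. Among genes of Schwann cells, the myelinating cells of peripheral nerve, Pmp2 had 0 counts in all libraries, Ncmap lay at 0.113 to 1.22 CPM, Prx at 1.322 to 3.42 CPM and Drp2 at 77.97 to 93.99 CPM.

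The myelin genes spanned a wide range of levels. Per kilobase of exon, Mbp averaged 154 ± 18.4 CPM per kb (SD, n = 24 libraries). Cnp followed at 55.4 ± 4.9 CPM per kb. Cldn11 at 46.95 ± 6.1, Mal at 46.3 ± 6.41 and Mobp at 45.8 ± 6.36 CPM per kb differed by less than their spread. Mag at 21.5 ± 2.79 and Mog at 17.4 ± 2.19 CPM per kb came lower, and Ermn at 7.79 ± 0.866 and Opalin at 4.03 ± 0.669 CPM per kb were lowest. Cnp and Ermn share 154 and 237 exon bases with Dnajc7 and Galnt5 on the opposite strand, and Mobp 79 with Gm38642. Since the use of strand in counting is not given in the sources used here, some of their reads may belong to those neighbours. 

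None of the 9 genes was called different from vehicle on day 1, day 2 or day 3 by edgeR's quasi-likelihood test at an adjusted p under 0.05. The shares of all 16767 tested genes called were 0.0656% on day 1, 0.0656% on day 2 and 0.614% on day 3. At an unadjusted p under 0.05, edgeR had 0, 2 and 0 of the 9 genes on the 3 days, beside 7.25%, 5.2% and 5.64% of all tested genes, DESeq2 0, 1 and 0, and limma voom 0, 2 and 0, and neither DESeq2 nor limma voom called any of the 9 after adjustment. Between each day and vehicle the libraries overlapped for every one of the 9 genes, and they did not overlap for 0.596%, 0.328% and 0.662% of all tested genes on the 3 days. In whole tissue, a change in the number of oligodendrocytes and a change in myelin RNA per oligodendrocyte could not be told apart.

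**Figure D1:**
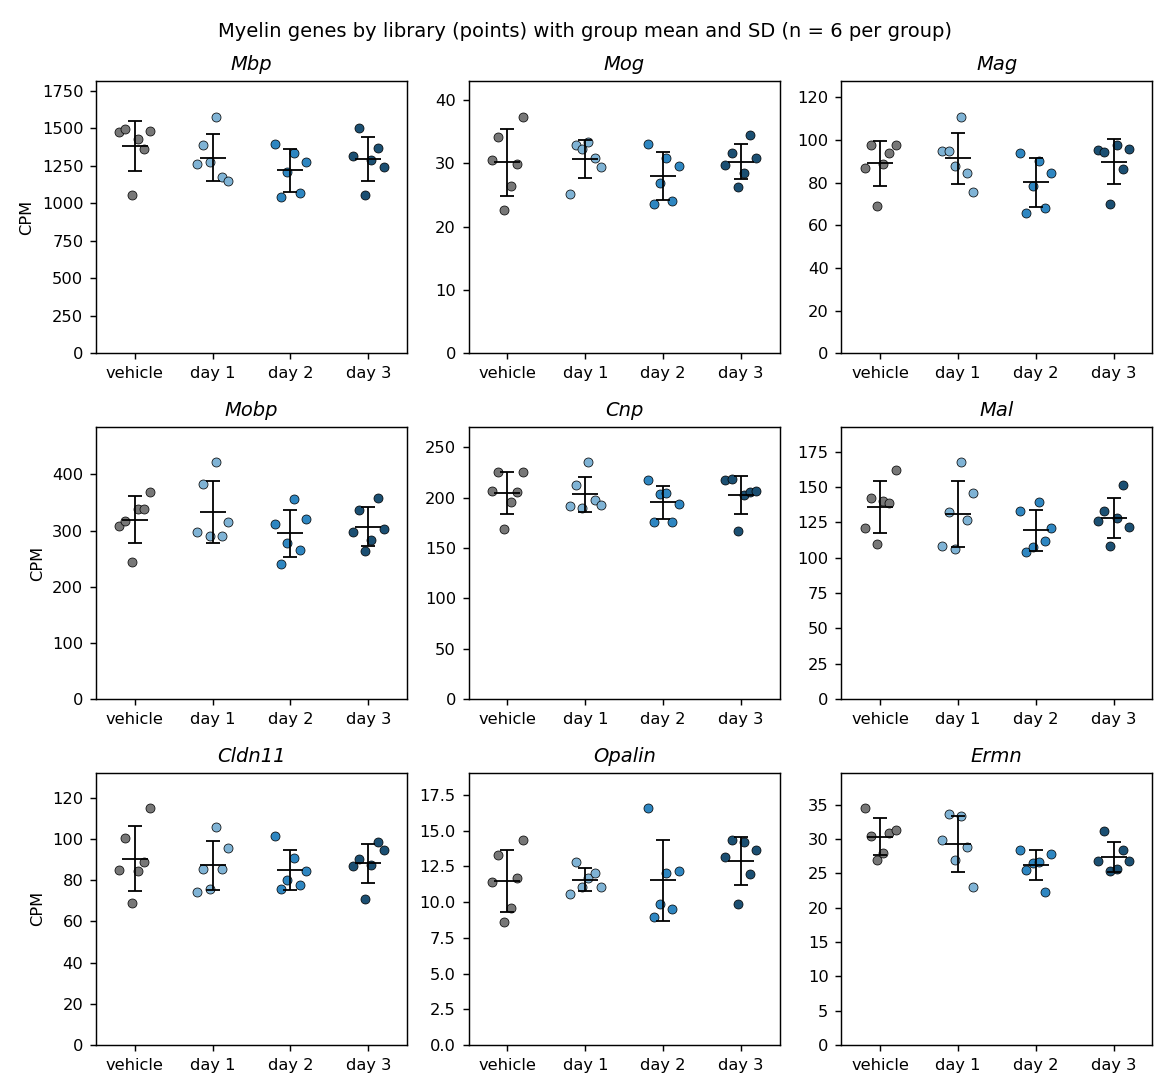
Level of each myelin gene in CPM (vertical axes, starting at 0) in the vehicle, day 1, day 2 and day 3 libraries; points are libraries, the horizontal marks are group means and the bars SD (n = 6 per group). The groups overlap in every panel, and the lowest vehicle library for Mbp stands at 1056 CPM.

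Mbp (ENSMUSG00000041607.18), the most abundant of the 9, had a lowest, median and highest level of 1056, 1452 and 1498 CPM in vehicle, 1148, 1270 and 1579 CPM on day 1, 1044, 1242 and 1395 CPM on day 2, and 1056, 1304 and 1500 CPM on day 3. No day 2 library was above the vehicle median, and 1 was below the lowest vehicle library. The fitted log2 difference from vehicle was -0.09 ± 0.09 (SE) on day 1, -0.18 ± 0.09 on day 2 and -0.10 ± 0.09 on day 3. On day 2 its 95% interval ran from -0.36 to -0.0032 and its unadjusted p was 0.0463, but the adjusted p by edgeR was 0.949.

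Mobp (ENSMUSG00000032517.17), the other cytoplasmic-face protein, stood at 245, 327 and 369 CPM in vehicle (lowest, median, highest), 290, 307 and 421 CPM on day 1, 241, 295 and 355 CPM on day 2, and 263, 300 and 358 CPM on day 3. Its log2 differences from vehicle were 0.06 ± 0.10, -0.12 ± 0.10 and -0.06 ± 0.10 on the 3 days. The highest library of all for Mobp was a day 1 library and the lowest a day 2 library.

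Cnp (ENSMUSG00000006782.17), the enzyme of the cytoplasmic channels, had the smallest coefficient of variation of the 9 over all 24 libraries, 8.84%, though in none of the 4 groups alone, with 169, 206 and 226 CPM in vehicle, 190, 196 and 235 CPM on day 1, 175, 199 and 217.5 CPM on day 2, and 167, 206 and 219 CPM on day 3. It had the smallest errors, with log2 differences from vehicle of -0.01 ± 0.07, -0.07 ± 0.07 and -0.02 ± 0.07.

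Mal (ENSMUSG00000027375.15), the lipid-sorting protein, had 109.5, 140 and 162 CPM in vehicle, 106, 130 and 167.5 CPM on day 1, 104, 116 and 139 CPM on day 2, and 108, 127 and 151.5 CPM on day 3. All 6 day 2 libraries lay below the vehicle median, and 2 of them below the lowest vehicle library. The log2 differences were -0.06 ± 0.10, -0.19 ± 0.10 and -0.09 ± 0.10, with an unadjusted p of 0.059 and an edgeR adjusted p of 0.958 on day 2. Cldn11 (ENSMUSG00000037625.8), the tight junction protein, had 68.9, 87.04 and 115 CPM in vehicle, 74.5, 85.6 and 106 CPM on day 1, 75.8, 82.5 and 102 CPM on day 2, and 70.8, 88.9 and 98.8 CPM on day 3. No library after activation lay above the highest or below the lowest vehicle library for Cldn11, and its log2 differences were -0.07 ± 0.09, -0.10 ± 0.09 and -0.05 ± 0.09.

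Among the membrane proteins that face outward or toward the axon, Mag (ENSMUSG00000036634.16) had 69.2, 91.4 and 97.6 CPM in vehicle, 75.4, 91.2 and 111 CPM on day 1, 65.9, 81.4 and 93.9 CPM on day 2, and 70.0, 94.8 and 97.5 CPM on day 3. Its log2 differences were 0.04 ± 0.10, -0.15 ± 0.10 and 0.02 ± 0.10. Mog (ENSMUSG00000076439.13) had 22.7, 30.1 and 37.4 CPM in vehicle, 25.2, 31.5 and 33.3 CPM on day 1, 23.6, 28.2 and 33.0 CPM on day 2, and 26.3, 30.3 and 34.4 CPM on day 3. Vehicle held both the lowest and the highest Mog library, and the log2 differences were 0.01 ± 0.09, -0.12 ± 0.10 and -0.01 ± 0.09.

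Opalin (ENSMUSG00000050121.10), the membrane protein with the lowest level of the 9, had 8.64, 11.6 and 14.4 CPM in vehicle, 10.6, 11.4 and 12.8 CPM on day 1, 8.93, 10.96 and 16.6 CPM on day 2, and 9.86, 13.4 and 14.3 CPM on day 3. On day 3, 5 of 6 libraries were above the vehicle median, with none above the highest vehicle library. Opalin had the largest upward log2 difference of the 9 genes against vehicle, 0.16 ± 0.13 on day 3 (edgeR unadjusted p 0.21, adjusted p 0.999), while the differences on day 1 and day 2 were 0.00 ± 0.13 and -0.00 ± 0.13. In fits of 1 sex alone the day 3 value was 0.36 in females and -0.12 in males. With 163 to 304 counts per library it also had the widest interval, -0.10 to 0.42 on day 3.

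Ermn (ENSMUSG00000026830.10), the actin-binding protein, had 27.02, 30.7 and 34.5 CPM in vehicle, 22.95, 29.3 and 33.7 CPM on day 1, 22.3, 26.6 and 28.5 CPM on day 2, and 25.3, 26.8 and 31.2 CPM on day 3. All 6 day 2 libraries were below the vehicle median and 4 were below the lowest vehicle library, as were 4 of the 6 day 3 libraries. Its log2 difference of -0.21 ± 0.08 on day 2 was the largest of the 9 genes in either direction and had the smallest unadjusted p, 0.0143, with an edgeR adjusted p of 0.794. The differences on day 1 and day 3 were -0.05 ± 0.08 and -0.15 ± 0.08.

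**Figure D2:**
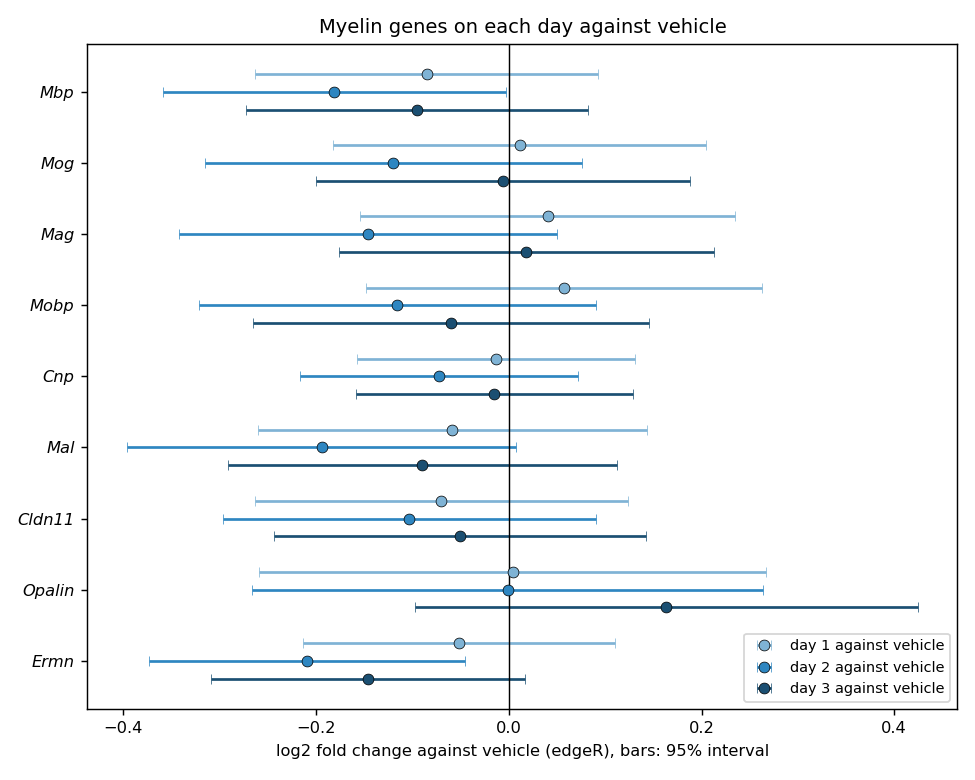
Fitted log2 fold change of each myelin gene against vehicle (horizontal axis) on day 1, day 2 and day 3, with bars for the 95% interval. All 9 day 2 points are at or below 0, and the day 2 intervals of Mbp and Ermn are the ones that do not hold 0.

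The median log2 difference of the 9 genes from vehicle was -0.01 on day 1, -0.12 on day 2 and -0.05 on day 3, while the median of all tested genes was 0.00 on each day. On the 3 days 5, 9 and 7 of the 9 genes had a value below 0, against 49.4%, 49.7% and 51% of all tested genes. The 9 genes varied together across libraries, as described below, so these are not counts of separate results. The 3 comparisons share the vehicle libraries, and the day 2 value of Opalin, -0.0012, turned positive under 4 of the 13 other settings tried and in 7 of 24 fits that left out 1 library. The 95% intervals of the 9 genes lay within 0.833- to 1.204-fold of vehicle on day 1, 0.76- to 1.201-fold on day 2 and 0.807- to 1.34-fold on day 3. Without the 8 Ttr-rich libraries the medians were -0.09, -0.25 and 0.02, with 9, 9 and 3 of 9 genes below 0, and again none was called. On day 1 Mobp then stood at -0.09 and Mbp at -0.20, on day 2 Mobp at -0.27, Mog at -0.25, Mal at -0.30 and Mbp at -0.28, and on day 3 Mag at 0.08 and Opalin at 0.21. The part of choroid plexus carried along with the tissue in these values was not tested.

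No gene of the 9 was called in day 2 against day 1 (0.0119% of all tested genes called), in day 3 against day 2 (0.131%) or in day 3 against day 1 (0.65%), and in each of these comparisons 0 of 9 had an unadjusted p under 0.05 by edgeR, DESeq2 or limma voom. The libraries of the days overlapped for all 9 genes in all 3 comparisons, and did not overlap for 0.167%, 0.322% and 0.829% of all tested genes. Against day 1, the day 2 values of all 9 were below 0, beside 48.4% of all tested genes. The median of the 9 was -0.13, with the largest differences in Mag (-0.19 ± 0.10), Mobp (-0.17 ± 0.10) and Ermn (-0.16 ± 0.08). Against day 2, the day 3 values of all 9 were above 0, while 49.7% of all tested genes were below 0. The median of the 9 was 0.09, with the largest in Mag (0.16 ± 0.10) and Opalin (0.16 ± 0.13). The 9 genes varied together across libraries, so neither count is one of 9 separate results. Both counts rest on the same 6 day 2 libraries, and small values turned over: Opalin in day 2 against day 1 (-0.01) was above 0 in 5 of 24 fits that left out 1 library and in males alone (0.09), Cldn11 (-0.03) in 2 such fits and in females alone (0.03), and in day 3 against day 2 males alone gave -0.05 for Cnp, -0.01 for Opalin and -0.0022 for Mbp. Without day 1 library 4, Mag and Mobp differed between day 2 and day 1 by -0.12 and -0.09. Without the Ttr-rich libraries the median was -0.09 in day 2 against day 1 and 0.27 in day 3 against day 2, with Mag at 0.30. In day 3 against day 1 the median was -0.02, with Opalin highest (0.16 ± 0.13) and Mobp lowest (-0.12 ± 0.10). That direction turned without the Ttr-rich libraries, where the median was 0.13, 1 of 9 genes was below 0 (Ermn, at -0.0038), and Mobp stood at 0.09 and Mbp at 0.14. A joint test of the 3 days against vehicle also called 0 of 9 (0.644% of all tested genes), with 0 of 9 at an unadjusted p under 0.05 by edgeR, DESeq2 or limma voom. Its smallest unadjusted p by edgeR was 0.062, for Ermn.

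Between females and males 0 of the 9 genes were called by edgeR's adjusted p, against 0.0716% of all tested genes called, and 0 of 9 had an unadjusted p under 0.05 by edgeR, DESeq2 or limma voom. The median female minus male log2 difference was -0.02, and -0.13 without the Ttr-rich libraries. The largest were -0.11 ± 0.07 in Cldn11 and -0.09 ± 0.07 in Mog. A test for a day effect that differs between the sexes called 0 of 9 and 0% of all tested genes by edgeR, with 0 of 9 at an unadjusted p under 0.05 by edgeR, DESeq2 or limma voom. Taken day by day, a female minus male difference in the day effect was fitted for each gene. It was below 0 for 50.9% of all tested genes on day 1, 51.4% on day 2 and 50.8% on day 3. All 3 days share the vehicle libraries, and the 9 genes varied together across libraries, as described below. The difference was above 0 for 8 of the 9 genes on day 1, with Mal at -0.10, and for all 9 on day 2 and on day 3. On day 3 it was largest for Opalin (0.48 ± 0.26) and Mbp (0.31 ± 0.18), whose unadjusted p-values of 0.0751 and 0.0888 came with an edgeR adjusted p of 1.00 each. In fits of 1 sex alone, the median day 3 difference from vehicle was 0.04 in females and -0.15 in males, and vehicle held only 2 males. Ermn on day 1 had the smallest p of these single-day terms (0.33 ± 0.16, unadjusted p 0.0466, edgeR adjusted p 1.00).

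The range of libraries within each group was wider than any difference between group means. The summed level of the 9 genes was 2294 ± 268.5 CPM in vehicle, 2223 ± 265 CPM on day 1, 2062 ± 236 CPM on day 2 and 2183 ± 224 CPM on day 3 (SD, n = 6 each). Single libraries ran from 1764 CPM in day 2 library 2 to 2698 CPM in day 1 library 4. In 4 libraries, vehicle 3, day 2 libraries 2 and 5 and day 3 library 3, all 9 genes were below their own mean over the 24 libraries, by -0.29, -0.29, -0.26 and -0.25 on average on the log2 scale. Day 1 library 4 and vehicle library 6 were the highest, at 0.27 and 0.26, with all 9 genes above their means. All 9 were also above their means in vehicle libraries 2 and 5, day 2 library 1 and day 3 library 2. The low libraries belong to 3 of the 4 groups, and 1 of the 4 was Ttr-rich.

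**Figure D3:**
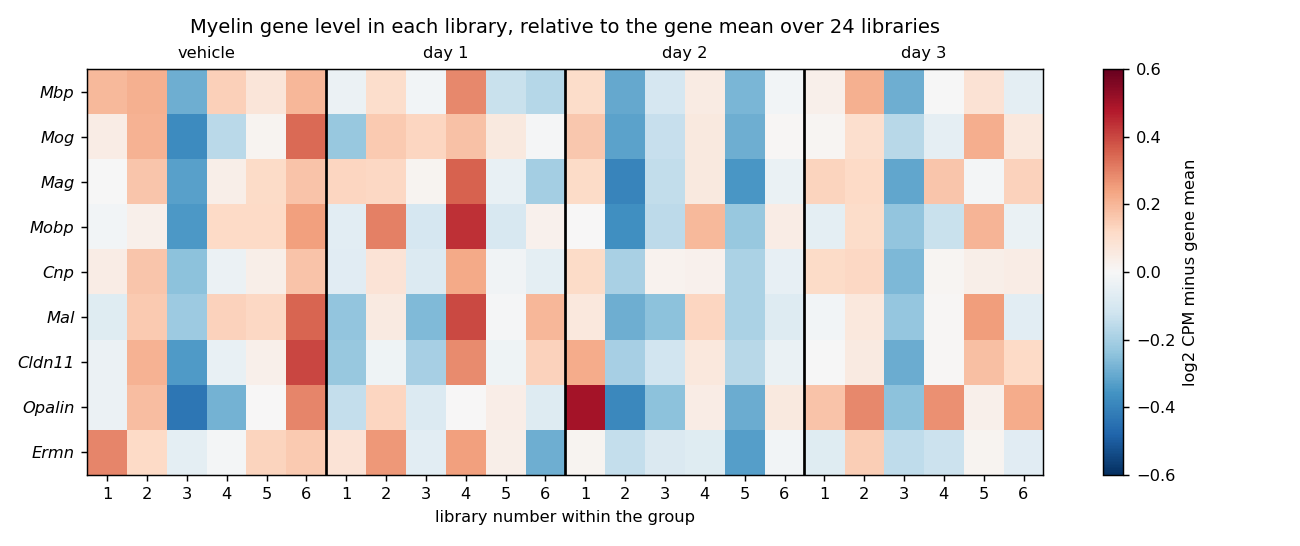
Log2 CPM of each myelin gene minus its mean over 24 libraries (colour, red above and blue below the mean), by library within the vehicle, day 1, day 2 and day 3 groups. Some columns lie on one side of the mean: vehicle 3, day 2 libraries 2 and 5 and day 3 library 3 are below it for all 9 genes. Vehicle libraries 2, 5 and 6, day 1 library 4, day 2 library 1 and day 3 library 2 are above it for all 9. Opalin in day 1 library 4 is above it by only 0.0013.

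After group and sex were fitted out, the residual SD of the 9 genes on the log2 scale was 0.14 in Cnp, 0.15 in Ermn, 0.18 to 0.21 in Mbp, Mog, Mag, Mobp, Mal and Cldn11, and 0.25 in Opalin. The median among 9527 genes at or above the level of the lowest of the 9 was 0.10, and the myelin genes stood between its 82.8th and 98.6th percentiles.

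These residuals moved together. Over the 24 libraries, Pearson's r between the 36 pairs of myelin genes ran from 0.33 to 0.91 with a median of 0.76, and Spearman's rho from 0.37 to 0.91 with a median of 0.74. By a two-sided permutation test, 34 of the 36 pairs had an adjusted p under 0.05 among the 63 relations computed. The permutation did not count group and sex as fitted terms, which makes its p-values too small. The tightest pairs were Mal with Cldn11 (r = 0.91, rho = 0.91), Mbp with Cnp (r = 0.91, rho = 0.87) and Mbp with Mag (r = 0.90, rho = 0.77), each with a permutation p of 1e-05 for r, the smallest that 100000 resamples can give, and an adjusted p of 2.6e-05. The 2 exceptions both involved Ermn: with Mal r was 0.33 and rho 0.37 (permutation p 0.118 and 0.0728, adjusted p 0.162 and 0.102), and with Cldn11 r was 0.42 and rho 0.45 (permutation p 0.0434 and 0.0297, adjusted p 0.0621 and 0.0425). Cnp had the highest mean r with the other 8 genes, 0.81, and Ermn the lowest, 0.57. Values within a library share its normalization and tissue composition.

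Markers of 2 other cell types were set against the 9 genes by the same permutation test. Pdgfra, the receptor that marks oligodendrocyte precursors, had r from -0.08 to 0.16 and 0 of 9 adjusted p-values under 0.05. Rbfox3, the neuronal nuclear protein, had r from 0.01 to 0.36 and 0 of 9. Other neuronal genes differed from Rbfox3 in their likeness to the 9, in both directions, as given below. For each pair, the 2 libraries farthest from the median of its first gene were also left out, so they could differ between pairs. The median r of the 36 pairs was then 0.67, and 33 pairs kept an adjusted p under 0.05. Without the 8 Ttr-rich libraries it was 0.69, with 28 of 36 pairs under 0.05 over 16 libraries. The pairs then ran from -0.04 to 0.93. Over those 16 libraries the relations with Pdgfra ran from -0.11 to 0.545 with a median r of 0.43, against 0.14 over all 24. By the permutation, which did not count the fitted terms, 1 of 9 was under 0.05, at an adjusted p of 0.0491. The relations with Rbfox3 ran from -0.30 to 0.30. The first 2 digits of the animal number, a grouping whose meaning the labels do not state, were also fitted. The median r was then 0.76, with 36 of 36 pairs under 0.05. All these permutations exchanged residuals without counting the terms fitted out, which makes p-values too small. That holds most for the fit with these digits, which used the most terms.

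**Figure D4:**
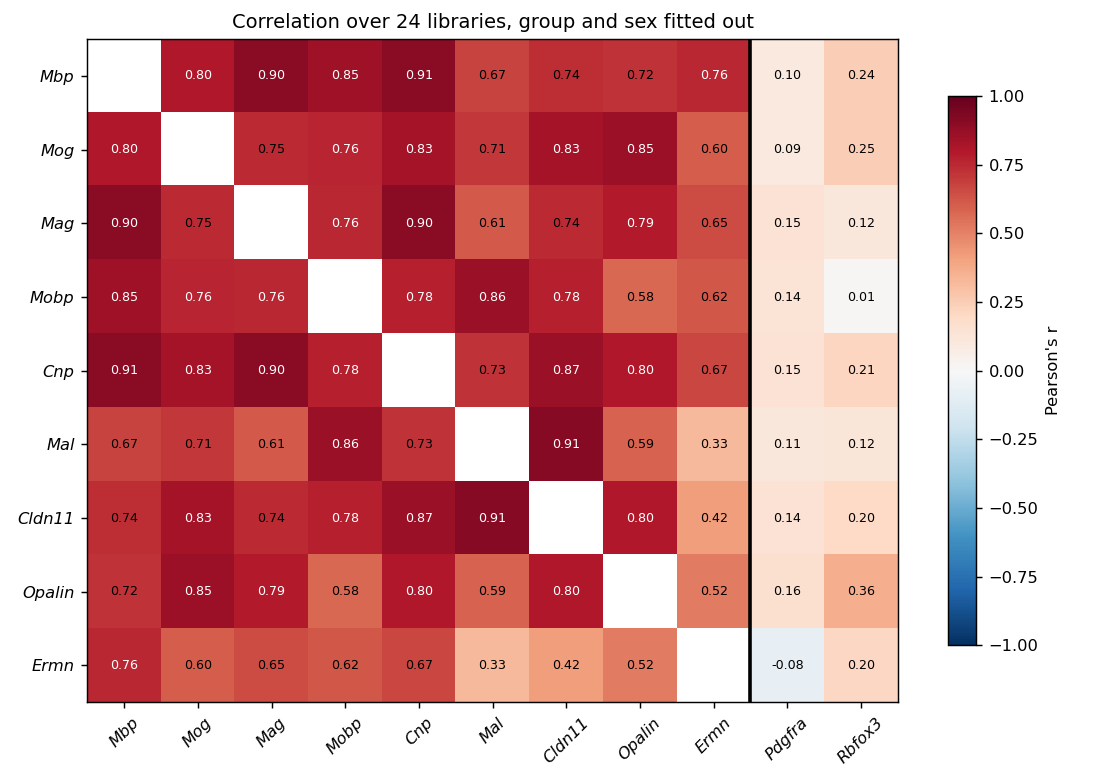
Pearson's r over 24 libraries between log2 CPM residuals of the myelin genes (rows) and of the myelin genes, Pdgfra and Rbfox3 (columns), with group and sex fitted out; the black line separates the 2 added genes. The myelin block runs from 0.33 to 0.91, and the Pdgfra column from -0.08 to 0.16.

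Among the 10 genes most like the mean residual of the 9, of 16715 ranked over the 24 libraries, were Tmbim1 (r = 0.88), Tspan2 (0.86), Trf (0.83), Cers2 (0.83), Fa2h (0.82), S1pr5 (0.82), Tmem88b (0.81), Bcas1 (0.81) and Septin4 (0.81), given as a description with no test. Tspan2 is a tetraspanin of myelin, Trf the iron carrier transferrin made by oligodendrocytes, Cers2 and Fa2h enzymes of myelin sphingolipids, and S1pr5 a sphingosine phosphate receptor. Of a list of 42 other genes of mature oligodendrocytes, 7 were among the 10 most like and 22 among the 200 most like. The 5 least like were Plxnc1 (-0.92), Syn2 (-0.87), Efnb2 (-0.86), Slc39a6 (-0.85) and Rab3c (-0.84), of which Syn2 and Rab3c are synaptic vesicle genes. By list, the median r with the myelin mean was 0.76 for 6 myelin lipid enzymes, 0.65 for 14 other genes of mature oligodendrocytes, 0.58 for 12 other genes of myelin structure, 0.40 for 10 transcription factors, 0.36 for 7 genes of newly formed oligodendrocytes and 0.03 for 7 precursor genes. The median was 0.34 for 10 choroid plexus genes and 0.51 for 4 endothelial genes. For 9 neuronal genes it was 0.06, with values from -0.43 in Stmn2 to 0.51 in Nefh and 0.22 in Rbfox3.

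Other genes of the oligodendrocyte lineage, like the 9, were not called on any day. In the 12 genes of myelin structure beside the 9, edgeR called 0 on each of the 3 days, with medians of 0.02, -0.08 and -0.00 on the log2 scale and 0 of 12 at an unadjusted p under 0.05. The tetraspanin Tspan2 differed from vehicle by -0.02 ± 0.07, -0.13 ± 0.07 and -0.04 ± 0.07. The 6 lipid enzymes, among them the galactosylceramide synthase Ugt8a, had medians of 0.08, -0.05 and -0.01, none called and 0 at an unadjusted p under 0.05. Of the 14 other genes of mature oligodendrocytes, with medians of 0.03, -0.09 and -0.03, none was called, and 1 had an unadjusted p under 0.05, carbonic anhydrase 2 (Car2) on day 2 at -0.13 ± 0.06. The serine protease Klk6 had the largest fitted difference of that list, -0.63 ± 0.31 on day 2, from 9 to 50 counts per library.

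The 10 transcription factors had medians of -0.02, -0.07 and 0.01, none called, and 0, 3 and 0 of 10 at an unadjusted p under 0.05 by edgeR, beside 7.25%, 5.2% and 5.64% of all tested genes. The 3 on day 2 were Sox10 at -0.19 ± 0.07 (unadjusted p 0.0144, adjusted p 0.794), Olig1 at -0.10 ± 0.05 and St18 at -0.34 ± 0.16. Myrf, the activator of myelin genes, differed by -0.03 ± 0.10, -0.16 ± 0.10 and 0.02 ± 0.10. The 7 precursor genes had medians of 0.00, -0.07 and -0.01, none called and 0, 1 and 0 at an unadjusted p under 0.05. The 7 genes of newly formed oligodendrocytes had medians of 0.04, -0.07 and 0.06, none called and 1, 0 and 1 at an unadjusted p under 0.05. The receptor Gpr17 of that stage differed by 0.19 ± 0.08 on day 1, with an edgeR adjusted p of 0.576. The 10 axonal partners of myelin, such as the paranodal protein Cntnap1, had medians of 0.00, -0.00 and -0.03, with none called and 0 at an unadjusted p under 0.05.

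**Figure D5:**
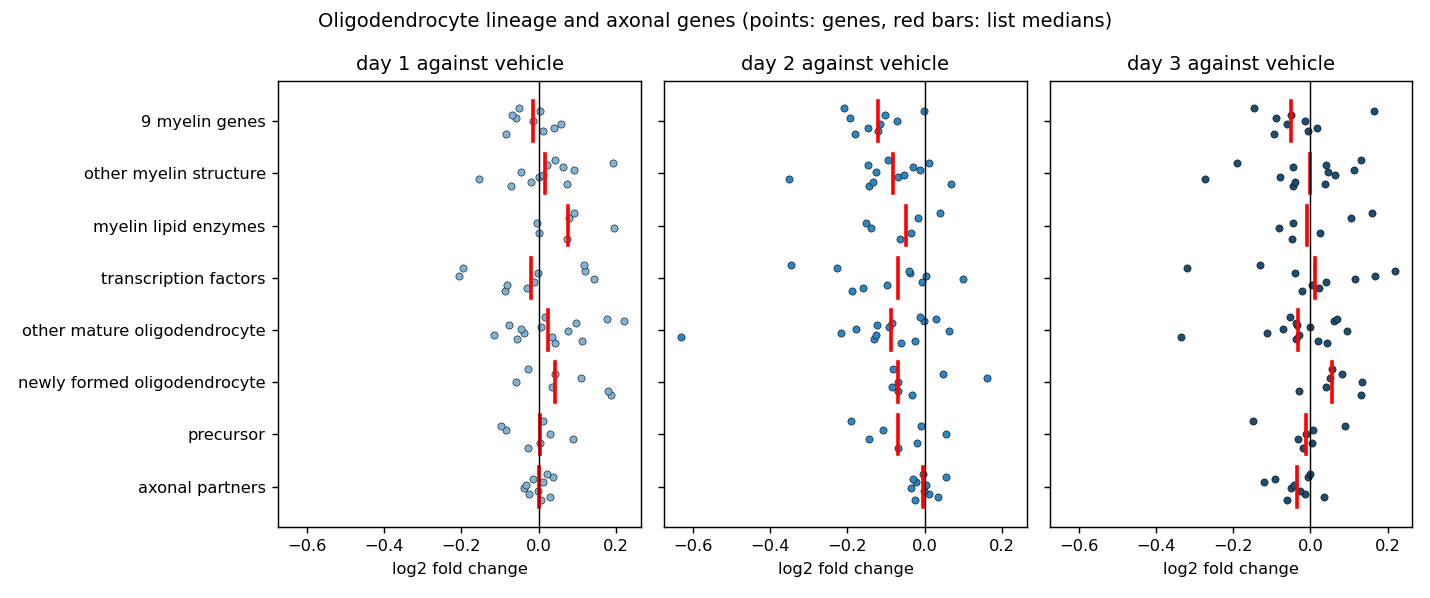
Log2 fold change against vehicle (horizontal axes) on day 1, day 2 and day 3 for the 9 myelin genes and 7 other lists (rows); points are genes and red bars list medians. On day 2 the medians of all 8 lists are below 0, between -0.12 for the 9 myelin genes and -0.00 for the axonal partners.

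Markers of other cell types are given for the same libraries. The summed level of 9 neuronal markers had a median of 6946 CPM in vehicle, 6816 on day 1, 6872 on day 2 and 6801 on day 3, and that of 5 astrocyte markers, most of it the glutamate transporter Slc1a2 with a mean of 3150 CPM, 4356, 4100, 4143 and 4015 CPM. Gfap, the intermediate filament of reactive astrocytes and not on that list, averaged 187 ± 23.3 CPM in vehicle, 217 ± 20.8 on day 1, 262 ± 34.8 on day 2 and 399 ± 46.6 on day 3 (SD, n = 6 each), and rose on day 2 (0.51 ± 0.08, edgeR adjusted p 0.00116) and day 3 (1.12 ± 0.08, edgeR adjusted p 1.8e-10). The 5 microglial markers had medians of 241, 242, 250 and 275 CPM, and 1 of them, the receptor Cx3cr1, rose on day 3 (0.26 ± 0.06, edgeR adjusted p 0.0412). The 4 endothelial markers had medians of 183, 172, 178 and 177 CPM, and the 7 leptomeningeal markers 123, 140, 131 and 138 CPM. The 10 choroid plexus markers ranged from 17.54 to 1305 CPM in vehicle, 21.75 to 1086 CPM on day 1, 19.4 to 1309 CPM on day 2 and 22.5 to 1203 CPM on day 3. Mbp itself ran from 1056 to 1579 CPM in the 8 Ttr-rich libraries and from 1044 to 1498 CPM in the other 16, with medians of 1348 and 1284 CPM. Each of the 9 myelin genes had its higher median in the Ttr-rich libraries, with Mobp at 336.6 against 297.6 CPM. The part of choroid plexus in the myelin values was not tested.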

How the data were processed

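The samples were 24 bulk RNA sequencing libraries of mouse entorhinal cortex, 6 per group. The authors deposited 1 table of raw counts, 1 column per library, and all 24 columns were used. Per the submitters' processing notes, fastp 0.23.1, STAR 2.7.9a, DESeq2 1.32.0 and the mm39 build were named, with no roles. Which program counted reads, on which annotation and with which strand setting, is not given in the sources used here.

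Counts were fitted in edgeR 4.0.16 (R 4.3.3) with TMM factors, genes kept by filterByExpr (minimum count 10, minimum total 15), group and sex as terms and all 24 libraries in one quasi-likelihood fit. P-values were two-sided and adjusted (Benjamini-Hochberg) over the 16767 genes tested. A gene was called at an adjusted p under 0.05. Library totals were 16621659 to 23667449 counts, and the biological coefficient of variation was 8.51%. Pairs of libraries within a group differed by 3.94 to 13.8 times counting noise (chi-square per degree of freedom, 60 pairs). CPM were TMM-scaled. Correlations used log2 CPM (prior count 2) residuals and 100000 permutations. Symbols were found for 52084 of 55417 entries. Exon lengths came from GENCODE M21 on another build than mm39, so no gene coordinates are given, and promoters came from RefSeq.

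Alternatives were RLE, upper-quartile and total scaling, other filters, DESeq2 1.42.0, limma 3.58.1 voom, other covariates, 1 sex alone, only the groups compared, leaving out Ttr-rich libraries (above 100 CPM) and leaving out each library. The genes and lists were chosen with earlier results of these data known. Named genes were the 9 members, called genes of the lists, up to 3 per list with the smallest joint p, and Myrf, Sox10, Pdgfra, Gpr17 and Ttr. Rbfox3 was a fixed partner in the correlations, and Pmp2, Gfap and EYFP were named after their values were seen. Some genes of these lists are not reported here. The fit was tested on simulated data.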

Additional observations from a re-analysis of the deposited data

Results flagged for a closer look

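In 36 gene-by-group sets of 6 libraries, 2 held a library far from the rest by Dixon's criterion, which chance alone passes in about 1 of 20 sets. Mbp stood at 1056 CPM in vehicle library 3, while the other vehicle libraries ran up to 1498 CPM, and the gap to its nearest neighbour was 0.687 of the group's range. Cnp stood at 166.6 CPM in day 3 library 3, below all other libraries of that day, with a gap of 0.684 of the range. In both libraries all 9 myelin genes were below their means over the 24 libraries. Day 3 library 3 was Ttr-rich and vehicle library 3 was not.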

How the results depend on the processing

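Across 9 comparisons, 13 other settings and 24 fits that each left out 1 library, 322 of 324 counts of called myelin genes were 0. Both exceptions came from testing every gene with a read by edgeR, 36066 in all. On day 2 against vehicle 2 of the 9 were then called, Mbp (adjusted p 0.00443) and Mal (0.0277), beside 86 of all 36066 genes. In the joint test of the 3 days 2 of the 9 were called, Mbp (0.0149) and Mag (0.0426), beside 433 of all 36066 genes. The standard error of Mbp on day 2 was 0.04 in that fit, against 0.09 with the filter, and the cause was not tested. Of 2295 single-gene values under the alternatives, 143 had the other sign, none of them in a gene called. On day 3 against vehicle the median of the 9 genes was -0.05, and it ranged from -0.15 in males alone to 0.04 in females alone. On day 2 it ranged from -0.28 with the animal number prefix fitted to -0.06 in females alone. Counts of all genes called moved by over 1.5 times in every comparison: 11 on day 1 became 0 (males alone) to 159 (no filter), 11 on day 2 became 0 (females alone) to 86, 103 on day 3 became 12 (males alone) to 217, and 108 in the joint test became 13 (males alone) to 433. Leaving out 1 library gave 4 to 28, 7 to 12, 72 to 110 and 68 to 132. The other counts were 2 in day 2 against day 1 (0 to 58), 22 in day 3 against day 2 (0 to 79), 109 in day 3 against day 1 (10 to 295), 12 between the sexes (11 to 132) and 0 for the interaction (0 to 175). No paired analysis was possible because the labels give no replicate numbers that the groups share, and the animal number prefix, fitted as a grouping above, pairs no libraries. Depth limits Opalin most, at 163 to 304 counts per library.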

Other observations

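Within the set of 9, the share of Opalin and of Ermn ran in opposite directions over the groups, given here as values with no test. Relative to the mean of the other 8 genes on the log2 scale, Opalin averaged -0.10 ± 0.13 in vehicle, -0.06 ± 0.13 on day 1, 0.03 ± 0.20 on day 2 and 0.12 ± 0.14 on day 3 (SD, n = 6 each). Ermn averaged 0.07 ± 0.16, 0.02 ± 0.16, -0.03 ± 0.12 and -0.07 ± 0.10 on the same scale. The spread between libraries was as large as or larger than the difference between neighbouring groups for both genes. Vehicle and day 3, whose means lay farther apart, were not compared by a test. These genes were picked out of the 9, and each is part of the other's mean of 8.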
